A study of Mus musculus with 4 samples.

Results

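The comparison described here sets mouse Ba/F3 cells that expressed BCR-ABL in medium with interleukin-3 (IL-3) against the parental Ba/F3 line, which was also grown with IL-3. It therefore shows how transcripts differ when the kinase is present on top of the growth factor. Its members are all 19935 genes whose probe sets carry 1 gene symbol in the platform annotation, out of 28815 probe sets in all, and they were not chosen by their values. It rests on 2 of the study's 4 arrays, 1 for each side.

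Ba/F3 cells are an established pro-B line of the mouse and need IL-3 to survive. The derived cells carry a BCR-ABL gene under control of doxycycline. The submitters asked which genes respond to BCR-ABL and to IL-3, in relation to resistance to imatinib. The 4 arrays form 3 groups: parental cells with IL-3 gave 1 array, BCR-ABL cells with doxycycline at 500 ng/ml and IL-3 gave 1 array, and BCR-ABL cells with the same doxycycline and no IL-3 gave 2 arrays, called A and B. Cells were harvested in logarithmic growth. The labels name doxycycline only for the BCR-ABL cells and do not say whether that line is 1 clone, so BCR-ABL, doxycycline and the derived line cannot be told apart in this comparison. With 1 array on each side there are no replicates and no test; arrays A and B, the measured levels when IL-3 is absent, are given beside the main values. They were set against the same parental array, so they are not independent support.

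IL-3 binds a receptor made of Il3ra and the common beta chain, and the kinase JAK2 then activates STAT5, the RAS-ERK cascade and PI3 kinase. BCR-ABL, an always active kinase found in chronic myeloid leukaemia and blocked by imatinib, feeds the same pathways without any ligand. Known outputs include the feedback inhibitors Cish and Socs1 and the survival kinases of the PIM family below STAT5, and the DUSP phosphatases below ERK.

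The deposited values are log differences against the parental array, taken as log2, and the parental value is 0 in every probe set. Absolute levels were therefore not analysed, and whether the cells carry the defining markers of a pro-B cell could not be checked. The median difference over all genes on the BCR-ABL plus IL-3 array was 0.0085, and 72.3% of genes lay within 0.2 of 0. On A and B the median over all genes was 0.0044 and -0.0769. Over genes the SD of the log2 differences was 0.32 in this comparison and 0.20 between A and B, the only arrays of like cells. At least 2-fold apart, the size used for all counts here, were 25 genes between A and B (7 higher on A and 18 higher on B). Precision is limited by the number of arrays.

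In BCR-ABL cells with IL-3, 219 genes (1.1%) were at least 2-fold higher than in parental cells with IL-3, and 103 genes (0.517%) were at least 2-fold lower. Where a gene list below is given without a share, these are the shares to set beside its counts. The ratio of higher to lower genes grew with size, while both counts fell. At 1.5-fold there were 658 higher and 504 lower genes, at 3-fold 86 and 17, at 4-fold 49 and 7, and at 8-fold 11 and 1. Probe sets were read as dim where a stored number was seen to lie in the lower part of the array's scale. They belonged to 24 of the 219 higher and 11 of the 103 lower genes, against 7311 of all 19935. Some dim probe sets are missed by this reading, so these counts are minimums.

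**Figure D1:**
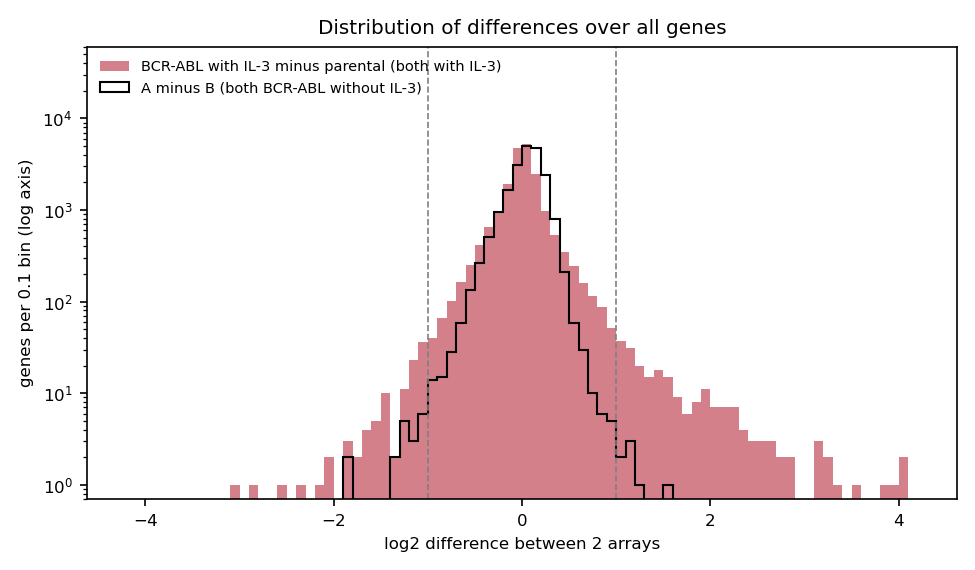
Number of genes (log axis) in bins of 0.1 of the log2 difference, for the BCR-ABL array with IL-3 minus the parental array (filled) and for A minus B (line). Dashed lines mark 2-fold; 219 genes lie at or beyond it on the right and 103 on the left in the filled distribution, against 25 in all between A and B.

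The named genes farthest above the parental cells were signalling receptors, secreted factors and antiviral genes. Il2ra, the receptor chain that gives high affinity for interleukin-2, was 16.2-fold higher (log2 difference 4.02, with 4.10 on A and 4.12 on B). The chemokine gene Ccl3 was 15.6-fold higher (3.97, with 4.17 on A and 3.42 on B). Usp18, the protease that removes ISG15 from proteins and restrains interferon signalling, was 14.2-fold higher (3.83, with 3.79 and 3.68). All 3 BCR-ABL arrays thus lay far above the parental array for these genes, and for Ccl3 the array with IL-3 lay between A and B. Ifit3 and Ifit1, which encode antiviral proteins with tetratricopeptide repeats, were 11.5-fold and 10.1-fold higher. For Ifit3 the array with IL-3 (3.53) lay above A (2.99) and B (2.84), and a probe set of this gene was dim. Slfn2, a Schlafen gene that helps keep lymphocytes quiescent, was 9.59-fold higher (3.26, with 3.39 and 3.32). The type 2 cytokine Il13 was 9.27-fold higher (3.21, with 3.12 and 2.76), and the survival kinase Pim2 8.75-fold higher (3.13, with 3.01 and 2.95). For Slfn2 the array with IL-3 lay below both A and B, and for Il13 and Pim2 above both.

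Among the next genes were 2 of mast cells. Of 17 mast cell and basophil markers 8 lay below the parental value, a share like that of all genes (9442 of 19935). Milr1, an inhibitory receptor of mast cells, was 8.68-fold higher (3.12, with 3.39 and 3.37, on a dim probe set). Cpa3, the mast cell carboxypeptidase, was 7.23-fold higher (2.85, with 2.84 and 3.24). Upp1, a uridine phosphorylase, was 6.76-fold higher, with A (3.25) and B (2.17) on either side of the array with IL-3 (2.76). Fcgr1, the high-affinity receptor for IgG, was 6.38-fold higher, the inhibitory receptor Lilr4b 6.25-fold and Tnf 5.79-fold. Lilr4b and its neighbour Lilrb4a (2.52) are close relatives, and probes of such genes can share signal. Oasl2 (6.53-fold) and Irf7 (6.09-fold), of the interferon response, completed the 16 highest named genes; predicted genes were not named, and 1 of them stood highest at 4.03.

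**Figure D2:**
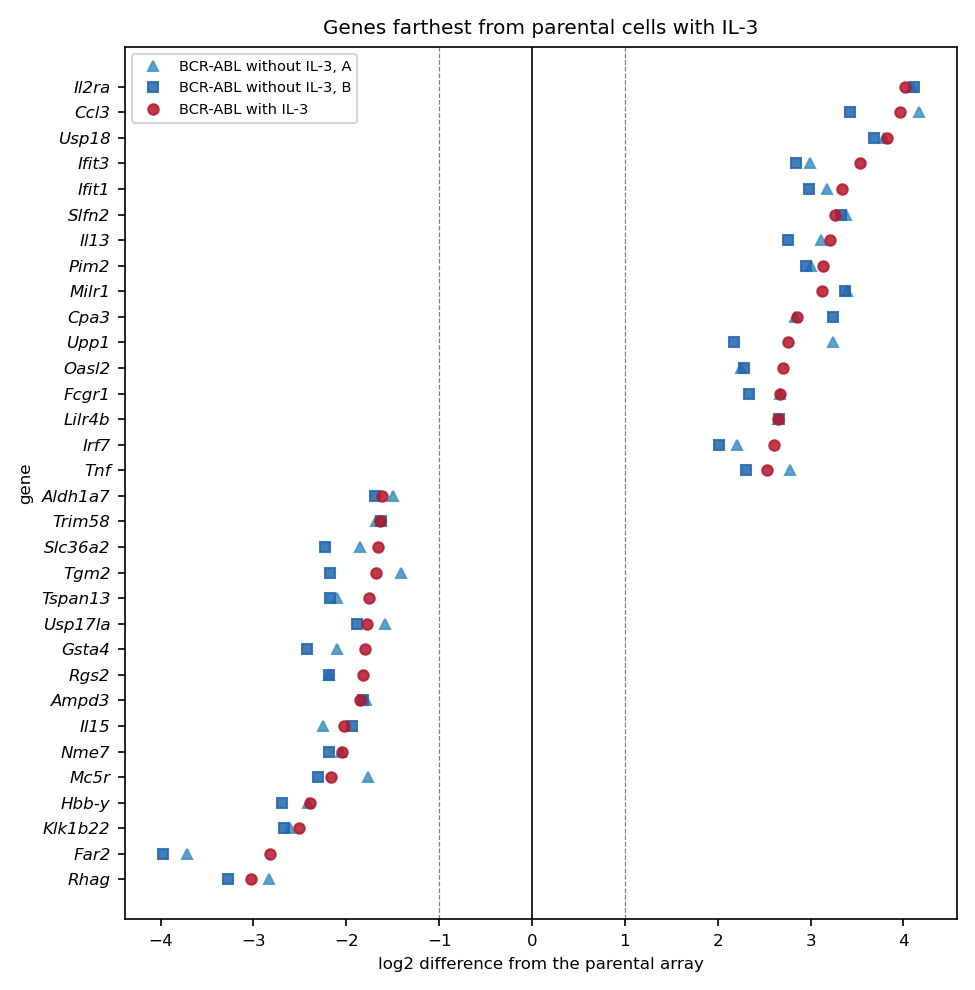
Log2 differences from the parental array for the 16 named genes farthest above and the 16 farthest below it on the BCR-ABL plus IL-3 array (circles), with A (triangles) and B (squares) without IL-3. Dashed lines mark 2-fold; every gene shown lies past 2-fold on all 3 arrays, and for Far2 the circle lies to the right of both other symbols.

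The genes farthest below the parental cells included several of red cells. Rhag, an ammonium transporter in the red cell membrane, was 8.16-fold lower (log2 -3.03, with -2.83 on A and -3.28 on B), and the embryonic globin Hbb-y was 5.25-fold lower (-2.39, with -2.42 and -2.69, on a dim probe set). Far2, which reduces fatty acyl-CoA to fatty alcohol, was 7.09-fold lower (-2.83), while A (-3.71) and B (-3.98) lay lower still. The kallikrein Klk1b22 was 5.68-fold lower, although its family holds many near-identical genes and its probes may read several of them. The melanocortin receptor gene Mc5r was 4.49-fold and the nucleoside diphosphate kinase relative Nme7 4.12-fold lower. Il15, a cytokine of lymphocytes, was 4.07-fold lower (-2.03, with -2.25 and -1.94), while its receptor chain Il15ra was 2.13-fold higher. The AMP deaminase Ampd3 was 3.60-fold lower, Rgs2, which dampens signals from G proteins, 3.54-fold and the glutathione transferase Gsta4 3.48-fold lower. Usp17la, Tspan13, Tgm2, Slc36a2, Trim58 and Aldh1a7 lay between -1.78 and -1.61, with Usp17la, of a family of near-identical genes, at -1.12 when probe sets with several symbols were added. For Trim58, a ubiquitin ligase of late red cell precursors, the 3 BCR-ABL arrays nearly coincided (-1.63, -1.68 and -1.63). Aldh1a7 and its neighbour Aldh1a1 (-1.59) are near-identical and were both dim.

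Among 37 gene lists compared, interferon-stimulated genes stood highest by median. These lists were chosen with earlier results of these data known, so their shares describe a selection and are not a test. Of 27 measured members, 18 (66.7%, against 1.1% of all genes) were at least 2-fold higher and 0 lower. The list's median was 1.69, where A had 1.29 and B 1.21, and without dim probe sets it was 1.37. Besides the IFIT genes, Usp18, Oasl2 and Irf7, these were the nucleic acid sensors and effectors Zbp1 (2.42), Mx2 (2.21), Oas2 (2.19), Rsad2 (2.004), Rtp4 (1.91), Mx1 (1.89), Dhx58 (1.74), Oas3 (1.74) and Xaf1 (1.69), and Oasl1, Ifit2, Bst2 and Ifi35 at 1.37 to 1.03. Mx2 and Rsad2 were on dim probe sets. The array with IL-3 lay above both A and B for 22 of the 27 members, against 7961 of all 19935 genes. Irf9 (0.92), Ddx58 (0.77) and Ifitm3 (0.55) stayed under 2-fold. Eif2ak2, the RNA-activated kinase PKR, was at 0.30, Stat2 at 0.17 and Ifih1 at -0.05. The members thus ran from over 10-fold higher to the parental level.

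Interferon genes and their type I receptor were near the parental level. Ifnb1, Ifna4 and Ifng stood at 0.13, 0.14 and 0.13, and the type I receptor chains Ifnar1 and Ifnar2 at 0.17 each. Irf3, which switches on Ifnb1, was at -0.28, with 0.12 on A and 0.07 on B. Of 22 interferons, sensors and pathway components only the adaptor Sting1 (1.13) was 2-fold higher and the interferon gamma receptor chain Ifngr1 (-1.07) 2-fold lower. A dim probe set was present in 4 of the 22, and absolute levels were not analysed. Values near the parental level therefore do not show whether a gene was transcribed. Of 8 Schlafen genes Slfn2 and Slfn4 (1.64) were 2-fold higher (25.0%, against 1.1% of all genes). The other members lay between -0.06 and 0.74. The class I antigen genes showed H2-Q4 at 1.29, the proteasome activator Psme2 at 0.73 and the peptide transporters Tap1 and Tap2 at -0.03 and -0.54 (median 0.20 over 12 genes). A further list, of interferon-induced GTPases and IFI200 genes, was put together after the values were seen. Of its 16 members 9 (56.2%, against 1.1% of all genes) were 2-fold higher and 0 lower (median 1.01). Among them were Gbp2b (1.97), Ifi27l2a (1.52) and, on dim probe sets, Ifi207 (1.46) and Iigp1 (1.45).

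Promoters of the interferon list were searched for the interferon-stimulated response element, a short promoter site of antiviral genes, in the 250 bases before each RefSeq start (GRCm38.p6). The letters searched were GAAA, any 2 bases and GAAA, on both strands. A match was present in 978 of 32851 windows (2.98%) and in 547 of the 19114 windows of measured genes (2.86%). Among the 2-fold higher genes it was present in 20 of 210 windows (9.52%), and among the 2-fold lower genes in 3 of 105 (2.86%). A match was present in 7 of 21 windows of the interferon list (33.3%). Of its 19 members with a window, 5 of 7 with a match and 6 of 12 without one were 2-fold higher. The windows of 4 genes that were higher are shown because they hold the element, with matches in capitals. Ifit1 (chr19:34640639-34640888, plus strand) and Ifit3 (chr19:34583279-34583528, plus strand) each hold 2 matches, Oas3 (chr5:120777660-120777909, minus strand) 1, and Bst2 (chr8:71537473-71537722, minus strand) 2 that overlap.
Ifit1: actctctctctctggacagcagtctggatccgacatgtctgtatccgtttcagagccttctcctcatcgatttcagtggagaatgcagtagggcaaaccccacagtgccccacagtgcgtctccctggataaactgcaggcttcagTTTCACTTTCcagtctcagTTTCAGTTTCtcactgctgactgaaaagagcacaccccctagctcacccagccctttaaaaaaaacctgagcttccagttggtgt
Ifit3: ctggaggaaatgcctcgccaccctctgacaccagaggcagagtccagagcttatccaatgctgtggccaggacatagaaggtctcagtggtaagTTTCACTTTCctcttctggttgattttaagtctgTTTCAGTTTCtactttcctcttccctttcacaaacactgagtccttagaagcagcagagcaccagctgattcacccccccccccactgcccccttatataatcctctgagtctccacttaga
Oas3: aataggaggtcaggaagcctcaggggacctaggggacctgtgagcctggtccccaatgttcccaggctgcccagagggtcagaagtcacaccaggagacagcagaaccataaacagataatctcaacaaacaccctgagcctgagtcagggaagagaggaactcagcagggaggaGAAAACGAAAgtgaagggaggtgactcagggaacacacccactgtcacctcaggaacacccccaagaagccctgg
Bst2: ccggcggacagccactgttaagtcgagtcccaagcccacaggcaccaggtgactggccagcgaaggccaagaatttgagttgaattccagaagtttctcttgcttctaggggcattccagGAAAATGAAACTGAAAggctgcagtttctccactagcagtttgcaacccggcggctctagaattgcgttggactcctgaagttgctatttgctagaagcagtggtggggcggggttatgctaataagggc
The matches begin 104 and 85 bases before the start in Ifit1, 156 and 122 in Ifit3, 75 in Oas3, and 130 and 124 in Bst2. A match is a description of the letters and does not show that a factor binds there.

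**Figure D3:**
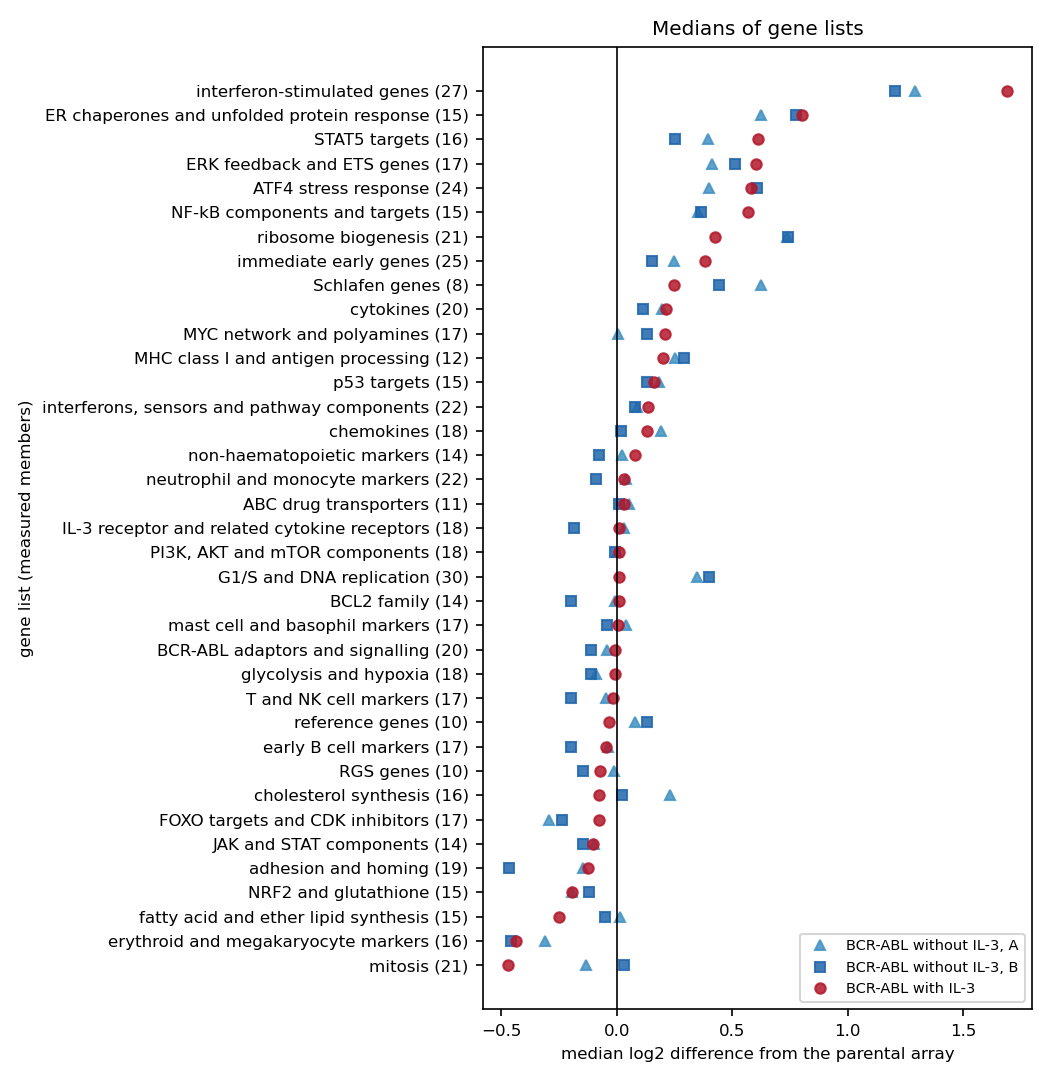
Median log2 difference from the parental array for 37 gene lists, with the number of measured members in brackets, on the BCR-ABL plus IL-3 array (circles) and on A (triangles) and B (squares) without IL-3. Interferon-stimulated genes lie highest at 1.69 and mitosis genes lowest at -0.47 on the array with IL-3.

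Some targets of STAT5 stood far above the parental cells, with IL-3, which itself activates STAT5, on both sides. Of 16 measured targets 5 (31.2%, against 1.1% of all genes) were 2-fold higher and 0 lower, with a median of 0.61 (0.46 with the probe set nearest to 0), where A had 0.39 and B 0.25. They were Il2ra, Pim2, the cytokine Osm (2.17, with 1.84 and 1.72), and the feedback inhibitors Cish (2.108, with 2.113 and 2.001) and Socs1 (1.95, with 1.82 and 1.77). Cish was 4.31-fold and Socs1 3.87-fold higher, and neither array without IL-3 lay far from the array with it. The survival gene Bcl2l1 (0.91) and the cyclin Ccnd2 (0.71) were under 2-fold. Socs2 (0.11), Pim3 (0.07) and Mcl1 (-0.02) were near the parental level, and Id1 was lower at -0.64. The GAS site of STAT factors, with the letters TTCNNNGAA on both strands, was present in 7.02% of all windows of 250 bases. It was present in 6.57% of the windows of measured genes and in 23 of 210 windows of the 2-fold higher genes (11.0%). In the STAT5 list 3 of 18 windows held it (16.7%). Those 3 windows belonged to Socs3 (0.63) and Bcl6 (-0.03), so 0 of 2 members with a match and 4 of 10 without one were 2-fold higher.

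Transcripts of the signalling machinery itself mostly lay near the parental level. Abl1 and Bcr, the mouse partner genes of the fusion, were at -0.02 and 0.23. Whether their probes read the transgene was not analysed here, so these values do not check its expression. Of 14 JAK and STAT components 0 were 2-fold apart, but with 1.62% of all genes past 2-fold a list this short would often hold 0. Stat5b was at -0.56 (-0.56 on A and -0.52 on B), Stat5a at -0.28, the phosphatase Ptpn6 at -0.48 and Ptpn2 at 0.55. Of 18 receptor genes Il2ra, Il4ra (1.10) and Il15ra (1.09) were 2-fold higher (16.7%, against 1.1% of all genes). The IL-3 receptor chains Il3ra, Csf2rb and Csf2rb2 stood at -0.45, 0.07 and -0.04, and Il3 itself, on a dim probe set, at -0.12. Among 20 adaptors below BCR-ABL, Sos1, an exchange factor that activates RAS, was 2.28-fold higher (1.19, with 0.75 on A and 1.18 on B) and the ubiquitin ligase Cblb was at -0.64. Gab2, an adaptor needed for transformation by BCR-ABL, was at 0.12 with IL-3 and at -0.39 and -0.38 without it. Among 18 genes of PI3 kinase, AKT and mTOR signalling, Sesn2 (1.12) was 2-fold higher. The list also held Pdk1 (-1.001), which in the mouse names a pyruvate dehydrogenase kinase and not the kinase of this pathway, whose gene Pdpk1 was at 0.02. In the same list the catalytic subunits Pik3cg and Pik3cd were at 0.94 and 0.56.

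Secreted factors differed in a few genes by large amounts. Of 20 cytokines 5 (25.0%, against 1.1% of all genes) were 2-fold higher, namely Il13, Tnf (2.53), Osm, Il4 (1.76, with 2.20 and 1.63) and Lif (1.68, with 1.31 and 1.17), and Il15 was 2-fold lower (5.0%, against 0.517%). The list's median was 0.21, or 0.90 without dim probe sets. Csf2 (0.13), Il5 (0.08), Il2 (0.02) and Csf3 (0.01) were within 0.2 of the parental value. Of 18 chemokines 4 (22.2%, against 1.1% of all genes) were 2-fold higher and 0 lower (median 0.13, or 0.94 without dim probe sets). They were Ccl3, Ccl6 (2.32), Ccl5 (1.96) and Cxcl10 (1.89). Ccl4, the close relative of Ccl3, was at 0.47. Cxcl10 and Ccl5 are also induced by interferon, while Cxcl9, an interferon gamma target, was at 0.00.

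Receptors of myeloid and lymphoid cells were grouped after the values were seen, so the counts describe a selection. Of 27 myeloid surface receptors 11 (40.7%, against 1.1% of all genes) were 2-fold higher and 2 (7.41%, against 0.517%) lower. The higher ones included Fcgr1, Lilr4b, Lilrb4a, Tarm1 (2.36) and Tlr1 (1.998, with 2.43 and 3.25, on a dim probe set). Cd33 (1.94), Adgre1 (1.83), Fcgr4 (1.75) and Cd68 (1.54) were also higher, while Siglecf (-1.03) and Cd180 (-1.56) were lower. Cd74, the invariant chain of class II antigen molecules, was 5.08-fold higher (2.35, with 2.94 and 2.40), and the lysosomal protease Ctss, which trims it, 4.45-fold higher. The class II chains H2-Ab1, H2-Aa and H2-Eb1 and their activator Ciita were at 0.00, -0.01, 0.06 and -0.01. The TNF superfamily was also listed after the values were seen. Of its 33 genes 6 (18.2%, against 1.1% of all genes) were 2-fold higher, and Tnfrsf14 was 2.27-fold lower. Among the 6 were Tnfrsf23 (1.74) and Tnfsf10 (1.56), both on dim probe sets, Tnfsf14 (1.56), Tnfrsf12a (1.40) and Tnfrsf9 (1.34).

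Among feedback genes of the ERK cascade Dusp5 stood highest. Of 17 members 4 (23.5%, against 1.1% of all genes) were 2-fold higher and 0 lower, with a median of 0.60, where A had 0.41 and B 0.51. The nuclear ERK phosphatase gene Dusp5 was 5.70-fold higher (2.51, with 2.35 and 2.13), and the cytoplasmic one, Dusp6, 2.25-fold (1.17, with 1.30 and 1.24). Phlda1 was 3.24-fold higher, and Dusp10, which acts on p38 and JNK, 2.70-fold. Dusp10 (1.43) lay well above A (0.66) and B (0.45). Dusp1, an immediate early phosphatase of all 3 MAP kinase branches, was at 0.70 with IL-3 and at -0.08 and -0.17 without it. Etv5 (0.97) and Dusp4 (0.96) were just under 2-fold, and Spry1, Spry2 and Spry4 were at 0.17, 0.24 and 0.32.

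Immediate early genes, the first wave of transcription after a growth signal, had a median of 0.38, where A had 0.25 and B 0.15. Of 25 members 5 (20.0%, against 1.1% of all genes) were 2-fold higher and 0 lower. They were Zfp36, which marks AU-rich messages for decay (1.80, with 1.35 and 0.95), Egr2 (1.55), Ier5 (1.35), Fosl1 (1.03) and Jun (1.02, with 0.33 and 0.64). The array with IL-3 lay above both A and B for 16 of the 25, against 7961 of all 19935 genes. Fos (0.39, with 0.03 on each of A and B) and Klf6 (0.35, with -0.06 and -0.23) were under 2-fold, and Egr1 and Myc were near 0 and at 0.09. Of 15 NF-kB components and targets 2 (13.3%, against 1.1% of all genes) were 2-fold higher and 0 lower (median 0.57). These were the inhibitors Nfkbia (1.26, with 0.87 and 0.65) and Nfkbib (1.08). The inhibitor genes Nfkbiz (0.83) and Nfkbie (0.80) and the subunits Nfkb2 (0.75), Relb (0.57) and Rel (0.53) were higher by less.

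Genes of the secretory pathway had the second highest median of the 37 lists. All 15 measured ER chaperones and genes of the unfolded protein response were above the parental value, against 10491 of all 19935 genes. Their median was 0.80, where A had 0.62 and B 0.78. Of these genes 6 (40.0%, against 1.1% of all genes) were at least 2-fold higher. The disulphide isomerase Pdia4 was 3.19-fold higher (1.67, with 1.12 and 0.98). Its probe sets disagreed on the array with IL-3 (1.26 and 2.09), while they lay at 1.23 and 1.02 on A. Hyou1 was at 1.34, Creld2 at 1.30, Sdf2l1 at 1.28, Edem1 at 1.02 and Hspa5, the chaperone BiP, at 1.01 (0.59 and 0.78 without IL-3). Xbp1 (0.80) and Manf (0.75) were under 2-fold, and Canx (0.14) and Dnajc3 (0.15) near the parental level.

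The ATF4 branch answers amino acid shortage and ER stress. Of 24 members 6 (25.0%, against 1.1% of all genes) were 2-fold higher and 0 lower, with a median of 0.58, where A had 0.40 and B 0.61. Nupr1 was 4.61-fold higher (2.21, with 1.54 and 2.01). The transcription factor gene Ddit3, which encodes CHOP, was 4.002-fold higher (2.001), with A (0.49) and B (1.63) far apart from each other. Trib3 showed a like spread (1.58, with 0.59 and 1.15). The folate enzyme Mthfd2 (1.82, with 1.62 and 1.96), asparagine synthetase Asns (1.30, with 1.29 and 1.52) and Sesn2 were close to A and B. Psat1, Atf4 and Phgdh were at 0.85, 0.84 and 0.81, while Psph, the last enzyme of serine synthesis, was at -0.25 and Chac1 at -0.09. In a list added after the values were seen, 17 of 18 cytosolic aminoacyl-tRNA synthetases were above 0, against 10491 of all 19935 genes. The median was 0.61, with Tars and Cars at 1.06 each and Qars at -0.01.

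Promoters of these lists were searched for the ER stress response element, which binds NF-Y and ATF6, with the letters CCAAT, any 9 bases and CCACG, and for the C/EBP-ATF response element, with the letters TGATGNAA, each on both strands. The ER element was present in 37 of 32851 windows (0.113%) and in 21 of the 19114 windows of measured genes (0.11%). It was present in 2 of 210 windows of the 2-fold higher genes and in 7 of 13 windows of the ER list. Of its members with a window, 2 of 7 with a match (median 0.34) and 3 of 6 without one (median 0.91) were 2-fold higher. Its holders included Hspa5 and Creld2, but also Canx and Dnajc3, which were near the parental level. The C/EBP-ATF element was present in 3.45% of all windows and in 2.67% of the windows of measured genes. It was present in 11 of 210 windows of the 2-fold higher genes (5.24%) and in 6 of 23 windows of the ATF4 list (26.1%). There 2 of 6 members with a match (median 0.57) and 4 of 14 without one (median 0.74) were 2-fold higher. The windows of higher genes that hold a match are shown with it in capitals, for Hspa5 (chr2:34771840-34772089, plus strand), Creld2 (chr15:88819396-88819645, plus strand), Asns (chr6:7693210-7693459, minus strand) and Nupr1 (chr7:126625471-126625720, minus strand).
Hspa5: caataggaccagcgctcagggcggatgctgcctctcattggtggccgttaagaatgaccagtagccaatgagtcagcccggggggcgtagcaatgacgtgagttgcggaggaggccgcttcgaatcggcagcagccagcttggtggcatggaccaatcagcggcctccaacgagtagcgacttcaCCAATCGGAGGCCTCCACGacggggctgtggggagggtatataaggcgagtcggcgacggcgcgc
Creld2: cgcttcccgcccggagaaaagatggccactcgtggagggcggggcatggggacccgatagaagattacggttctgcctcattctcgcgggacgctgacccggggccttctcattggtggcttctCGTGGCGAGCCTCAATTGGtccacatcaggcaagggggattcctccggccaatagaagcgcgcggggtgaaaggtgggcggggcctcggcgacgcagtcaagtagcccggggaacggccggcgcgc
Asns: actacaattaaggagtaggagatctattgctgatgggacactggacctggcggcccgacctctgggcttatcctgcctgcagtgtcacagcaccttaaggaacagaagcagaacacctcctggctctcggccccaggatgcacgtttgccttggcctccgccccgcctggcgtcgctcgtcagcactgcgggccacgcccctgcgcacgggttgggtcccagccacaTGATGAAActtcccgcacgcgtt
Nupr1: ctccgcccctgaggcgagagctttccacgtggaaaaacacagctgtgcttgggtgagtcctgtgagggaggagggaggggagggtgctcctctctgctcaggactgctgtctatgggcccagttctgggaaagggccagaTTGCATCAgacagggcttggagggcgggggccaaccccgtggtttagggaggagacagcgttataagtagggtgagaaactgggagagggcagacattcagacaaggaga
In Hspa5 and Creld2 the ER element begins 65 and 126 bases before the start, on opposite strands. In Asns and Nupr1 the C/EBP-ATF element begins 23 and 110 bases before it.

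**Figure D4:**
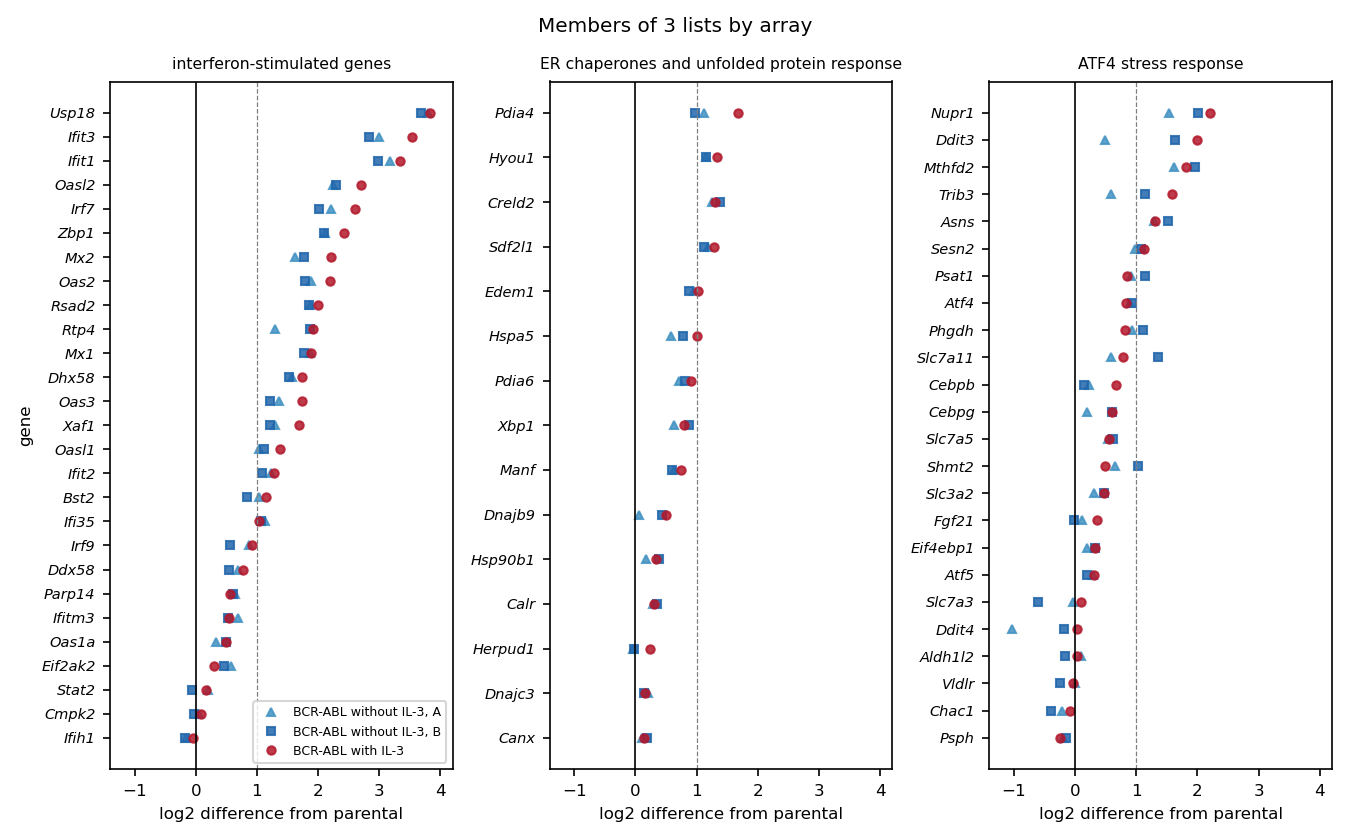
Log2 differences from the parental array for each measured member of the interferon-stimulated, ER chaperone and ATF4 lists, on the BCR-ABL plus IL-3 array (circles) and on A (triangles) and B (squares). The dashed line marks 2-fold; 18 of 27, 6 of 15 and 6 of 24 circles lie past it.

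Growth genes differed by list. The 30 measured genes for entry into S phase and for copying DNA had a median of 0.01, at the parental level, where A had 0.35 and B 0.40. Rrm2, which helps make the building blocks of DNA, was 2-fold higher (1.03, with 1.36 and 1.55), the cyclins Ccne1 and Ccnd2 were at 0.73 and 0.71, and E2f8, a repressor of E2F targets, was at -0.80. The replicative helicase genes Mcm2 to Mcm7 lay between -0.34 and 0.01 on the array with IL-3 and between 0.01 and 0.43 on A and B. The array with IL-3 lay below both A and B for 28 of the 30 genes, against 5083 of all 19935.

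Mitosis genes had the lowest median of the 37 lists, at -0.47, where A had -0.13 and B 0.03. Of 21 members 20 were below the parental value, against 9442 of all 19935 genes. Cenpf, a kinetochore protein, was 2-fold lower (-1.13, with -0.74 and -0.68). Kif23 (-0.73) and Kif20a (-0.67), motors of cell division, Cenpe (-0.62), Cdc20 (-0.56) and Plk1 (-0.44, with 0.04 on each of A and B) were lower by less. Top2a was at 0.02. Ribosome biogenesis genes were above the parental value in 20 of 21 cases, against 10491 of all 19935 genes. Their median was 0.42, where A and B each had 0.74. Rrp9, a processing factor of ribosomal RNA, was 2.21-fold higher, Bop1 was at 0.81 and Wdr12 at -0.27. Both lists lay below A and B in 19 of 21 members each. The array with IL-3 also lay below both for 14 of 16 cholesterol synthesis genes and 12 of 15 fatty acid and ether lipid genes. For reference genes it did so in 7 of 10. It lay above both for 0, 1 and 0 genes of these lists in turn.

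**Figure D5:**
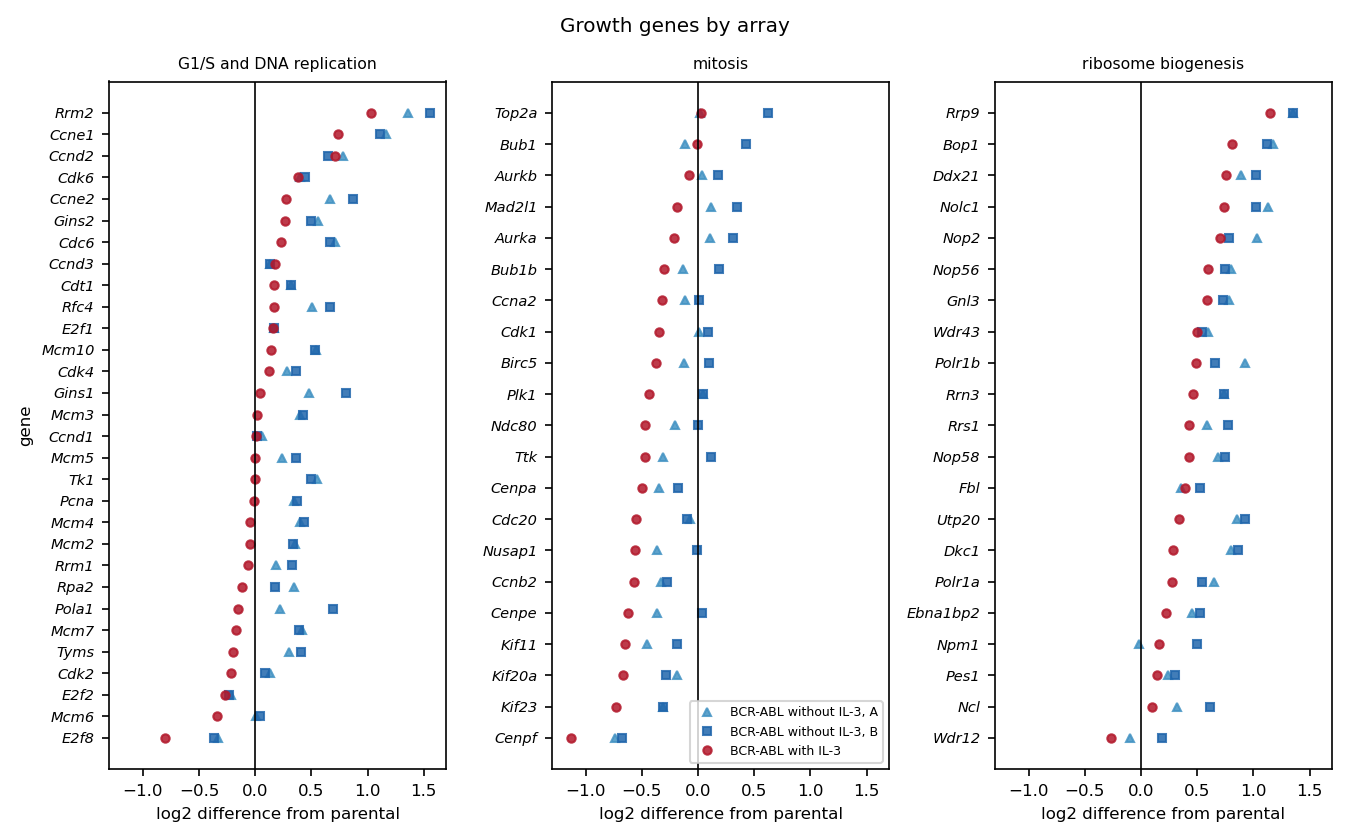
Log2 differences from the parental array for each measured member of the G1/S, mitosis and ribosome biogenesis lists, on the BCR-ABL plus IL-3 array (circles) and on A (triangles) and B (squares). Circles lie to the left of both other symbols for 28 of 30, 19 of 21 and 19 of 21 genes.

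The MYC network had a median of 0.21, with the spermidine synthase Srm at 0.98, the repressor Mxd1 at 0.75 (-0.06 and 0.13 without IL-3), Mxd4 at -0.75 and Nme7 2-fold lower. Among 17 FOXO targets and CDK inhibitors only Txnip, an inhibitor of thioredoxin and glucose uptake, was 2-fold lower (-1.47, with -0.47 and -1.28). Sesn1 was at -0.99, the pocket protein gene Rbl2 at -0.71 and Cdkn1b, which encodes p27 and had a dim probe set, at -0.59 (-1.13 and -0.45). The list's median was -0.08, where A had -0.29 and B -0.24. Of 14 BCL2 family genes the pro-apoptotic Bcl2l11, which encodes BIM, was 2.25-fold lower (-1.17, with -1.33 and -1.54), while the anti-apoptotic Bcl2l1 and Bcl2 were at 0.91 and 0.86. Of 15 p53 targets Sesn2 was 2-fold higher, Gadd45b was at 0.90, Mdm2 at 0.77 and Trp53inp1 at -0.75 (median 0.16).

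Of 16 cholesterol synthesis genes 0 were 2-fold apart and 13 were below the parental value, against 9442 of all 19935 genes. Insig1 (-0.59) and Hmgcs1 (-0.54) were lowest, and the median was -0.08, where A had 0.23 and B 0.02. Among 15 genes of fatty acid and ether lipid synthesis Far2 was the 1 gene past 2-fold, the desaturases Fads2 and Fads1 were at -0.53 and -0.49, and the median was -0.25 (0.01 and -0.05 on A and B). In a list added after the values were seen, Cpt1a, which brings fatty acids into mitochondria, was 2.56-fold lower (-1.35), the acetyl-CoA synthetase Acss2 2.73-fold lower (-1.45) and Hacd4 2.94-fold lower, while the epoxide hydrolase Ephx2 was 4.89-fold higher on a dim probe set. Of 18 genes of glycolysis and hypoxia Pdk1, which holds back pyruvate oxidation, was 2-fold lower, the glucose transporter Slc2a1 was at 0.88 (0.32 and 0.48), and the median was -0.01.

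Among 15 NRF2 and glutathione genes Hmox1, which degrades haem, was 3.01-fold higher (1.59, with 0.67 and 0.84). Gsta4 and Nqo1 (-1.16, on a dim probe set) were 2-fold lower. A list of 18 haem synthesis and iron genes was added after the values were seen (median 0.01). In it 2 genes (11.1%, against 1.1% of all genes) were 2-fold higher and 1 (5.56%, against 0.517%) lower. The mitochondrial transporter Abcb10 was 2.40-fold lower (-1.26). Besides Hmox1 the higher one was Alas1, the housekeeping enzyme that starts haem synthesis, at 2.72-fold (1.44, with 1.65 and 1.72). Alas2, its red cell form, was at 0.11. Of 11 ABC transporters Abcb1b, which encodes a P-glycoprotein that exports imatinib and other drugs, was 2.85-fold higher (1.51, with 1.59 and 2.11), while Abcb1a (0.03), Abcg2 (0.05) and Abcb4 (0.01) were near the parental level and Abcg1 was at 1.00, just under 2-fold.

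Of 19 adhesion and homing genes 0 were 2-fold higher and 2 (10.5%, against 0.517% of all genes) lower. These were the integrin chain Itga4, which holds cells in bone marrow (-1.46, with -1.95 and -1.90), and the chemokine receptor Ccr2 (-1.14). Itgb7, a partner chain of Itga4, was at -0.99, Itga6 at -0.68 and the homing receptor Cxcr4 at -0.67 (-1.11 and -1.14). Of 10 RGS genes Rgs2 was 2-fold lower and Rgs18 was at -0.73, while Rgs1 was at 0.44 (-0.11 and 0.02).

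Lineage markers past 2-fold were few in number, though not always in share. Of 17 mast cell and basophil markers Milr1 and Cpa3 were 2-fold higher (11.8%, against 1.1% of all genes), and 10 had a dim probe set. Hdc was at 0.99, Cma1 at -0.95 and the high-affinity IgE receptor genes Fcer1a and Ms4a2 at -0.07 and -0.74 (list median 0.01). Of 16 erythroid and megakaryocyte markers Rhag and Hbb-y were 2-fold lower (12.5%, against 0.517% of all genes). The transcription factor genes Klf1, Gfi1b and Gata1 were at -0.85, -0.76 and -0.33, and the list's median was -0.44 (-0.31 and -0.46). Of 22 neutrophil and monocyte markers Adgre1, which encodes F4/80, was 2-fold higher (4.55%, against 1.1%) and Ngp (-1.04) 2-fold lower (4.55%, against 0.517%). Mpo (-0.01), Lyz2 (0.21) and Spi1 (-0.03) were near the parental level, and 12 of the 22 markers had a dim probe set. Markers of early B cells (17), of T and NK cells (17) and of tissues outside the blood (14) held 0 genes past 2-fold and had medians of -0.05, -0.01 and 0.08. Their extremes were Cd79b (-0.40), Cd3g (-0.17) and Des (0.20). With 1.62% of all genes past 2-fold, lists this short would often hold 0. Of these markers 9, 11 and 7 had a dim probe set, so values near the parental level say little there. The 10 reference genes ran from Sdha (-0.32) to Gusb (0.32), with a median of -0.03.

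The array with IL-3 stood apart from both arrays without it in a few genes. Ranked by the smaller of its gaps to A and B, with predicted genes and small RNAs left out, it was highest above both for Far2 (1.85-fold above A and 2.22-fold above B), Dusp1 (1.71-fold and 1.82-fold), Dusp10 (1.71-fold and 1.98-fold), Ifi27l2a (1.68-fold and 2.01-fold) and Hmox1 (1.90-fold and 1.68-fold). For Far2 this brought the value toward the parental array, and for Dusp10, Ifi27l2a and Hmox1 it took it farther away. It was lowest below both for Kyat3, a kynurenine aminotransferase (0.00, with 0.70 and 0.63), Pole2, a subunit of DNA polymerase epsilon (-0.27, with 0.36 and 0.45), Neto2 (0.55, with 1.16 and 1.41), Nxpe5 (0.53, with 1.13 and 1.69, on a dim probe set) and the histone gene H3c15 (-1.10, with -0.50 and -0.04). Histone genes are near-identical, and H3c15 moved to -0.23 when probe sets with several symbols were added.

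Genes past 2-fold were also set by their place in the genome, from the RefSeq gene order for 19853 genes. There were 20 runs of at least 2 neighbouring measured genes past 2-fold in the same direction, 19 higher and 1 lower, which held 41 genes. Several runs were gene clusters of related function, such as Il4 with Il13, Osm with Lif, Ccl3 with Ccl6, Oas2 with Oas3, Oasl1 with Oasl2, Ifit2 with Ifit3 and Il2ra with Il15ra. The longest, of 3 genes, held Cish, the methyltransferase gene Hemk1 (2.27, with 2.23 and 2.12) and a predicted gene. Hemk1 was above Cish on each of the 3 BCR-ABL arrays. The 1 lower run was Aldh1a1 with Aldh1a7. Medians by chromosome were even, between -0.0056 and 0.0175 over the 20 chromosomes with at least 100 genes. Of the 9 genes past 2-fold that had several probe sets, all had them on 1 side of 0, and 5 had every probe set past 2-fold.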

How the data were processed

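Per the labels' protocols, RNA of 4 cultures was turned into labelled cDNA and hybridised to Affymetrix Gene 1.0 ST arrays. Each deposited value is a log difference against the parental array, whose own column holds 0 throughout, and is taken here as log2. The authors' background correction, normalization and probe summary, and the log base, are not given in the sources used here. Base 2 was assumed, and all fold sizes rest on it. Of 86431 values that differ from 0, 99.8% are whole multiples, within the rounding of their last printed digit, of 2 raised to -21. This is the spacing of single-precision numbers just under 8. It comes from how numbers are stored and would hold for another log base. It therefore does not show the base. Probe sets with an odd multiple on any array (11211) had a stored number below 8 and are called dim. A stored number below 8 can also leave only even multiples. Some dim probe sets are therefore missed, and they remain where dim ones are left out.

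Of the probe sets, 21780 had 1 symbol, 1605 several and 5430 were not listed. Those with 1 symbol were averaged per gene (998 genes had several), with no filter. The comparison took 1 array minus 1 array, without a test; counts use 2-fold. Calculations used Python 3.11.15 and pandas 2.3.3, and the counting was tested on simulated data. Promoter windows come from the RefSeq table (GRCm38.p6).

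Members, the 38 gene lists and the naming rule were chosen with earlier results of these data known, and 7 lists were added after the values were seen. One list, of the fusion partners and the cytokine loop, repeats genes of the others and served only for naming, which leaves 37 to compare: 5 of its 17 genes were 2-fold higher and 1 lower (median 0.07). The rule named the 16 most extreme genes in each direction, up to 5 members of each list past 2-fold (or the 2 most extreme), the 5 genes farthest above and below both A and B, and runs of 3 neighbours. Predicted genes, olfactory receptors and small RNAs were counted but not named. Any other list member was named with its value known. The alternatives tried were centring, another probe set rule, leaving out dim probe sets, adding probe sets with several symbols, other folds and counting probe sets.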

Additional observations from a re-analysis of the deposited data

Results flagged for a closer look

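With BCR-ABL and IL-3 together, the following values lay on the opposite side of the parental array from both arrays without IL-3, and the difference was not tested. Dusp1 was at 0.701, where A had -0.076 and B -0.167. Gab2 was at 0.118, where A had -0.391 and B -0.382. Pole2 was at -0.272, where A had 0.356 and B 0.451. The median of cholesterol synthesis genes was -0.0774, with 0.2322 on A and 0.0217 on B, and that of reference genes -0.0331, with 0.0808 and 0.1317. The medians of PI3 kinase, AKT and mTOR components (0.0114), of the BCL2 family (0.0079) and of haem synthesis and iron genes (0.0112) were near 0, with A at -0.0006, -0.0081 and -0.0189 and B at -0.0081, -0.1978 and -0.0617. Over all genes the medians were 0.0085 with IL-3, 0.0044 on A and -0.0769 on B. The side of 0 on which medians this near to it lie therefore says little.

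Probe sets outside the named genes also held differences. Of the 5430 probe sets that the annotation does not list, 50 were at least 2-fold apart between the BCR-ABL array with IL-3 and the parental array, 30 higher and 20 lower. Of the 1605 probe sets with several symbols, 33 were, 28 higher and 5 lower.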

How the results depend on the processing

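The size that counts as a difference moved the counts: 658 higher and 504 lower genes at 1.5-fold, and 86 and 17 at 3-fold. The other alternatives kept the counts within 1.5 times: 197 to 290 higher and 92 to 137 lower, for centring each array on its median, taking the probe set nearest to 0, leaving out dim probe sets, adding probe sets with several symbols and counting probe sets. Without dim probe sets 12851 genes remained, and the medians of glycolysis and hypoxia genes (-0.0069) and of class II antigen genes (-0.0016) turned to 0.0171 and 0.0276. Of the other 178 list medians recomputed, 13 moved by more than 0.083, the spread of list medians between A and B, and 165 did not. Of 147 genes named by the rule, 15 had no value without dim probe sets. Of 573 values of named genes, 568 moved by less than 0.138, the spread of 1 array, and 5 by more. These were Pdia4 (1.26) and Ptpn2 (0.33) with the probe set nearest to 0, and Gbp2b (2.39), Usp17la (-1.12) and H3c15 (-0.23) with probe sets of several symbols. No value could be tested by leaving out an array, since each side has 1. No paired analysis was possible because the groups compared have 1 array each. Signal over background was not analysed here.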
